A study of Homo sapiens with 17 samples.

Results

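U2OS is a human osteosarcoma cell line, and the sites described here are the places where all of FOXA1, FOXA2 and FOXA3 were mapped in it by ChIP-seq with an antibody against the Flag tag. Peaks of 4 lists (FOXA1 and FOXA2, each at full length and with the CTD deleted) on chromosomes 1 to 22 and X were merged where they shared at least 1 bp, giving 103347 sites. Of these, 9465 were held by all 4 lists, and 2172 of those also overlapped a peak of the FOXA3 CTD-deleted list. These 2172 are called common sites, and the other 7293 are called sites without FOXA3. The second name means only that the FOXA3 CTD-deleted list had no peak there. That list ends at a stricter limit of agreement between replicates than the other 4, and absence of FOXA3 was not tested. The members were chosen by the presence of FOXA peaks in these 5 lists, so the presence and the strength of FOXA peaks are given as a description and were not tested.

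The groups used carried Tet-on transgenes labelled FOXA1 and FOXA2 (full length), FOXA1dCTD, FOXA2dCTD and FOXA3dCTD (CTD deleted), and, for comparison, FOXA3, SOX2 and SOX2FOXA2CTD, a fusion of SOX2 with the FOXA2 CTD. Each group had 2 biological replicates and received doxycycline at 500 ng/ml for 4 days. The extraction protocol writes the concentration per microlitre, a conflict that was not resolved. All lines express their factor from an inducible construct in stable cells, and the labels do not say whether a line is 1 clone. The deposited lists combine both replicates of a group, so no comparison between groups has a replicate check. Read depth is unknown, and the intervals below are Wilson intervals for shares and Newcombe intervals for differences, which cover counting error over sites only.

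FOXA1, FOXA2 and FOXA3 share a winged-helix DNA-binding domain, the forkhead domain, which recognises a T-rich core written TGTTTAC. They are called pioneer factors because they can bind sites wrapped in nucleosomes. FOXA1 and FOXA2 are best known from endoderm and liver, FOXA1 also from breast and prostate, and FOXA3 from liver. SOX2, an HMG-box pioneer factor of pluripotent and neural cells, recognises a different sequence.

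Where the centre of a common site (the median of its FOXA1 and FOXA2 summits) fell in a RefSeq promoter window, the sequence could be read. The windows run from 250 bases before to 50 bases after a gene start (GRCh38.p14, the hg38 assembly named in the submitters' processing notes). A centre fell in 42 of 34961 windows, from 39 common sites. Below are the 250 bases before the start for the 5 strongest of these sites, then for 2 further sites picked, after their sequences were seen, because they hold TGTTTAC. They are printed 5′ to 3′ on the strand of the gene, with TGTTTAC or its reverse complement GTAAACA, and the AP-1 sequence TGACTCA or its reverse complement TGAGTCA, in capitals.
LOC105376003, chr9:28619811-28620060, plus strand: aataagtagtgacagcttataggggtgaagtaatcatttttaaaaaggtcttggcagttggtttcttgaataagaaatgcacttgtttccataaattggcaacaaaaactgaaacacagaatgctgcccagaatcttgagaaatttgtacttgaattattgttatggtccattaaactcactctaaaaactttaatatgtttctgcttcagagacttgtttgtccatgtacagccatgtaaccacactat
SLC22A10, chr11:63289653-63289902, plus strand: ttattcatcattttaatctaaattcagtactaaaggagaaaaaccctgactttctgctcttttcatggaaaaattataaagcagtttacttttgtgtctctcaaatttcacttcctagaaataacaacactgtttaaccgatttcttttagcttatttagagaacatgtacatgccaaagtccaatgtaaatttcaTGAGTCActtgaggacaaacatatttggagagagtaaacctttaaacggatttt
PCSK6-AS1, chr15:101334187-101334436, plus strand: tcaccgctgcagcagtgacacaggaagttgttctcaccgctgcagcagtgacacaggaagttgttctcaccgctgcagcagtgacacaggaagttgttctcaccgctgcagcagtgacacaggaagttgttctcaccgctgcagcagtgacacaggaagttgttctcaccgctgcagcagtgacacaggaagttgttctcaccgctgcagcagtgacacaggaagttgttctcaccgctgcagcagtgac
DUSP11, chr2:73780104-73780353, minus strand: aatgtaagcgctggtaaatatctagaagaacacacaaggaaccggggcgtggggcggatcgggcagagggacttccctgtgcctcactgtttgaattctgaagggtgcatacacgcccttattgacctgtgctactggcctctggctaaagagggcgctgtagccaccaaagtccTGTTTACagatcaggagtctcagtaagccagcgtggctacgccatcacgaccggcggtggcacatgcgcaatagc
SF3B6, chr2:24076327-24076576, minus strand: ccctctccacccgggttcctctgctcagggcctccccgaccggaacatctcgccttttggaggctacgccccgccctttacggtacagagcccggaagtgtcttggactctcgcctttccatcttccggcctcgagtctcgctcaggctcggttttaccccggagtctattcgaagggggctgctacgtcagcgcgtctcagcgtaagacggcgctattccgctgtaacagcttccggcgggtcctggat
WDR48, chr3:39051766-39052015, plus strand: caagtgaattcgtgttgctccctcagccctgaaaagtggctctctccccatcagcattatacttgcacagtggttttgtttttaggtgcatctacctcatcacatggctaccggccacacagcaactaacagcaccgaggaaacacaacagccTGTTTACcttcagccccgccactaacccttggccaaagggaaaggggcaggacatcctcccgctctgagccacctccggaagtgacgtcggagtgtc
LOC124903744, chr16:86223073-86223322, minus strand: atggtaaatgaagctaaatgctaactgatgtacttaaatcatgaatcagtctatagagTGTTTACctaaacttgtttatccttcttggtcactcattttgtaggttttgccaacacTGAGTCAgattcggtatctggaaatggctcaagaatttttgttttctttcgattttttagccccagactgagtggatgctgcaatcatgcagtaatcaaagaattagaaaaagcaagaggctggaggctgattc

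DUSP11 encodes a phosphatase that acts on RNA, SF3B6 a subunit of the U2 spliceosome complex, WDR48 a cofactor of deubiquitinases, and SLC22A10 a member of the organic anion transporter family. The centre of the DUSP11 site lay 62 bp from its TGTTTAC, that of the WDR48 site 35 bp and that of the LOC124903744 site 4 bp. The SLC22A10 stretch held 1 AP-1 sequence, and the LOC124903744 stretch held 1 of each. LOC105376003 and SF3B6 held neither in the bases shown. The PCSK6-AS1 stretch is a tandem repeat, with 100% of its bases identical to the base 33 positions further on.

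These promoter sites had the following peak values. The files give a −log10 p for each replicate without its number. At DUSP11 full-length FOXA1 had 9.25 and 33.1, CTD-deleted FOXA1 7.66 and 16.4, full-length FOXA2 13.6 and 7.66, CTD-deleted FOXA2 15.5 and 18.4, and CTD-deleted FOXA3 9.75 and 27.8. At WDR48, whose window overlaps that of SCN11A on the other strand, the same lists gave 9.57 and 27.1, 4.44 and 13.2, 9.72 and 5.03, 12.5 and 26.5, and 10.0 and 42.7. At the repeat of PCSK6-AS1 they gave 10.7 and 44.3, 6.43 and 7.38, 6.59 and 3.25, 12.5 and 8.19, and 11.3 and 25.4. The highest single value came from full-length FOXA1 at DUSP11 and PCSK6-AS1 and from FOXA3 at WDR48, and in each case the other replicate of that list lay within the range of the other lists.

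The main forkhead measure was the short core TGTTT on either strand, and its difference between common sites and sites without FOXA3 had an interval that includes 0. TGTTT was found in 35 of the 42 windows at common sites (83.3%, 95% interval 69.4 to 91.7), in 27 of 39 at sites without FOXA3 (69.2%, 53.6 to 81.4) and in 44.4% of all windows. The difference was 14.1 percentage points (-4.42 to 31.8). With each site counted once, since a site can lie in several overlapping windows, it was 17.9 points (-1.49 to 36.2).

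The longer TGTTTAC, which contains TGTTT, was the alternative, and it was more frequent at common sites. It occurred in 13 of 42 windows (31.0%) against 2 of 39 (5.13%), and in 3.42% of all windows. With each site counted once it was at 11 of 39 common sites (28.2%) and 2 of 36 sites without FOXA3 (5.56%), a difference of 22.6 points (5.49 to 38.7). The 11 sites were at DUSP11, WDR48 with SCN11A, PIK3IP1, LOC124903744, CREBL2, LINC02366, LINC00706, YIPF4, LOC124907883, GTF3C2 and BROX. The nearest TGTTTAC lay a median of 35 bp from the centre of the site (0 to 113), and within 50 bp at 6 of the 11. PIK3IP1 encodes an inhibitor of PI3-kinase, GTF3C2 a subunit of the RNA polymerase III factor TFIIIC, and CREBL2 a bZIP protein. Without the FOXA1 full-length list, TGTTTAC was in 15 of 58 windows against 5 of 58, a difference of 17.2 points (3.42 to 30.7). Common sites were also the stronger ones, as described below. Only 8 and 5 windows fell in the strongest bin of sites, so the part of strength cannot be told.

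Per window, the AP-1 sequence TGACTCA was at 26.2% (15.3 to 41.1) and 30.8% (18.6 to 46.4), against 4.92% of all windows. The TEAD sequence GGAATG was at 21.4% and 28.2% and in 4909 of the 34961 windows. The difference between common sites and sites without FOXA3 was -4.58 points for AP-1 (-23.6 to 14.7) and -6.78 for TEAD (-25.1 to 11.8), so neither could be told from 0. Windows centred on common sites had a median of 54.3% G and C, between the 50.0% at sites without FOXA3 and the 58.7% of all windows. Among the windows of at most 58.7% G and C, TGTTTAC was in 11 of 34 at common sites (32.4%) and in 5.20% of all. The part of base composition in these shares was not tested further.

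FOXA3 peaks were found more often the more FOXA1 and FOXA2 lists held a site. A FOXA3 CTD-deleted peak overlapped 987 of 56354 sites held by 1 list (1.75%, 1.65 to 1.86), 5.92% (5.62 to 6.23) of those held by 2, 12.8% (12.3 to 13.3) of those held by 3, and 22.9% (22.1 to 23.8) of those held by all 4. These shares come from peaks that the definition used, so they are a description. Merged sites can be wider where more lists hold them, and widths by number of lists were not compared. The share with FOXA3 also rose with strength. The strength of a peak is the lower −log10 p of its replicates, and a site was ranked by its lowest percentile over the 4 FOXA1 and FOXA2 lists. FOXA3 was at 13.7% (12.4 to 15.2) of the weakest of 4 equal bins of the 9465 sites and at 36.6% (34.7 to 38.6) of the strongest bin. The lists end at different limits of the irreproducible discovery rate (IDR), a measure of agreement between replicates: 0.200, 0.0501, 0.351 and 0.250 for the FOXA1 full-length, FOXA1 CTD-deleted, FOXA2 full-length and FOXA2 CTD-deleted lists, and 0.01 for FOXA3.

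**Figure D1:**
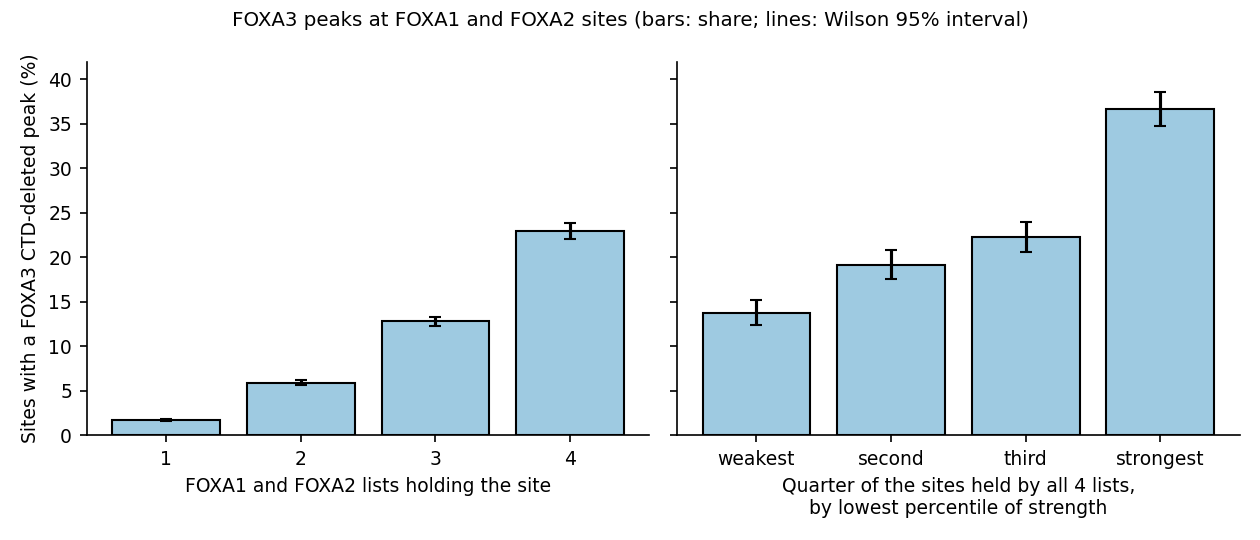
Share of sites (%) that overlap a FOXA3 CTD-deleted peak, by the number of FOXA1 and FOXA2 lists that hold the site (left) and by bin of strength among the sites held by all 4 lists (right), with Wilson 95% intervals. The share goes from 1.75% to 22.9% on the left and from 13.7% to 36.6% on the right.

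By definition each common site holds at least 1 peak of each of the 5 lists. Every list therefore gives a similar number of peaks, and its share mainly reflects its length. On these chromosomes the FOXA1 full-length and CTD-deleted lists hold 37219 and 50105 peaks. The FOXA2 lists hold 44637 and 52866 in the same order, and the FOXA3 CTD-deleted list holds 6763. Common sites took in 2203 FOXA1 full-length peaks (5.92% of that list) and 2216 FOXA1 CTD-deleted peaks (4.42%). They also took in 2209 FOXA2 full-length peaks (4.95%), 2209 FOXA2 CTD-deleted peaks (4.18%) and 2188 FOXA3 CTD-deleted peaks (32.4%). The FOXA3 full-length list, which the definition did not use, overlapped 1883 of the 2172 sites (86.7%). This is not independent evidence, because 4981 of its 6082 peaks on these chromosomes are exact copies of rows of the FOXA3 CTD-deleted list. Its 1101 rows of its own overlapped 207 common sites (9.53%), 85 of them outside the gene-free stretches described below, and 34 sites without FOXA3 (0.466%).

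Within the FOXA1 and FOXA2 lists, common sites were stronger than sites without FOXA3, most of all in the FOXA2 CTD-deleted list. The median strength there was 7.18 (quartiles 4.79 and 10.3) at common sites, 3.96 (2.96 and 5.80) at sites without FOXA3 and 2.96 over all peaks of the list. For FOXA2 full length the medians were 3.73, 3.01 and 2.24 in the same order, for FOXA1 CTD-deleted 7.29, 5.95 and 4.34, and for FOXA1 full length 5.97, 4.99 and 4.08. The interquartile ranges of both classes overlapped in every one of these 4 lists. Placed within its own list, the median common site stood at percentile 93.1 of FOXA2 CTD-deleted, 84.4 of FOXA2 full length, 84.2 of FOXA1 CTD-deleted and 80.9 of FOXA1 full length. In the FOXA3 list it stood at 60.2, with a median strength of 8.30 against 7.53 for FOXA3 peaks in other FOXA1 or FOXA2 sites and 7.02 for the 401 FOXA3 peaks outside them.

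**Figure D2:**
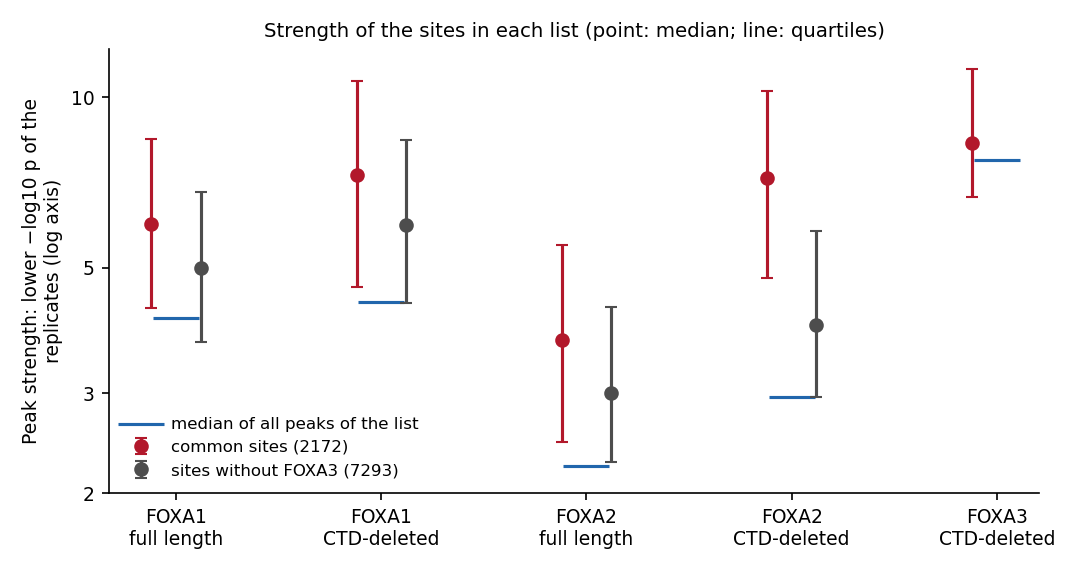
Peak strength (lower −log10 p of the replicates, log axis) in each list at common sites and at sites without FOXA3, as medians with quartiles, and the median of all peaks of the list. The widest gap is in the FOXA2 CTD-deleted list, 7.18 against 3.96.

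Agreement between replicates at the common sites differed between lists. An IDR of at most 0.01 was reached by 86.5% of the common sites for CTD-deleted FOXA1, 67.3% for CTD-deleted FOXA2, 32.6% for full-length FOXA1 and 0% for full-length FOXA2, where no peak reached it. Across the 2172 sites the Spearman correlation of −log10 p between replicates was 0.711 for FOXA1 CTD-deleted, 0.594 for FOXA2 full length, 0.400 for FOXA2 CTD-deleted, 0.371 for FOXA3 and 0.235 for FOXA1 full length. Between lists, the correlation of strength was highest for both FOXA2 lists (0.539) and lowest for FOXA1 full length with FOXA3 (0.185). These correlations describe sites that had all passed 5 thresholds, and the libraries they come from are shared by every site.

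The summits of the factors lay close together within a common site, which the definition did not require. The summits of the 4 FOXA1 and FOXA2 lists spanned a median of 63 bp at common sites and 89 bp at sites without FOXA3. They lay within 100 bp of each other at 1592 of 2172 common sites (73.3%, 71.4 to 75.1) and at 56.2% (55.0 to 57.3) of the sites without FOXA3, a difference of 17.1 points (14.9 to 19.3). The FOXA3 summit, which had no part in setting the centre, was a median of 22 bp from it, and within 50 bp at 1707 sites (78.6%). The merged sites were of similar width in both classes, with medians of 985 bp and 1025 bp. Strength moves with this result, since common sites were the stronger ones, and its part was not tested.

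**Figure D3:**
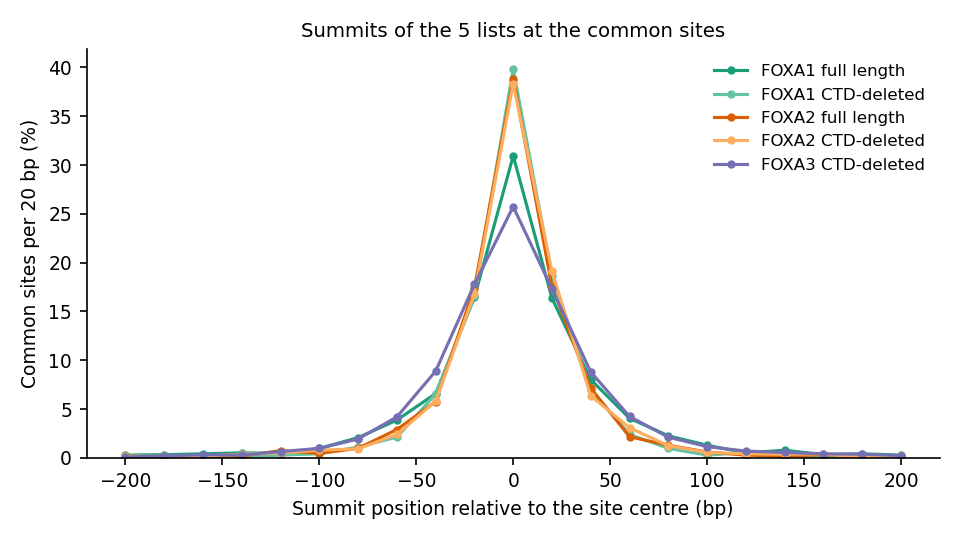
Position of the peak summits of the 5 lists relative to the centre of the common site (bp), as the share of common sites per 20 bp. The centre is the median of the FOXA1 and FOXA2 summits, and the FOXA3 summits also peak at 0, with a median distance of 22 bp.

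The definition has a threshold, an overlap of 1 bp, and the overlap with FOXA3 was measured. The smallest overlap of a common site with FOXA3 was 258 bp, on chromosome 1 at 123549585 to 123549867. Overlaps among the FOXA1 and FOXA2 peaks of a site were not measured. The closest site on the other side was on chromosome 4 at 65417402 to 65418969, 99.0 kb from an end of EPHA5, with a FOXA3 peak 89 bp away. Its strengths of 9.44, 4.99, 3.92 and 7.79 in the FOXA1 full-length, FOXA1 CTD-deleted, FOXA2 full-length and FOXA2 CTD-deleted lists were within the range of the common sites. In all, 57 sites without FOXA3 had a FOXA3 peak within 1 kb.

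A group of the common sites lay in long sequence without genes. On each chromosome the longest gene-free stretch was taken from the RefSeq gene table, and these held 127 common sites (5.85%, 4.94 to 6.91) and 19 sites without FOXA3 (0.261%, 0.167 to 0.407), a difference of 5.59 points (4.66 to 6.66). Of the 127, 100 lay on chromosome 1 and 25 on chromosome 13. A SOX2 peak overlapped 114 of the 127, and a fusion peak overlapped 118. Only the longest stretch of each chromosome was taken, so sequence of a similar kind can lie outside the stretches. Whether reads can be placed uniquely was not tested inside or outside them. The peaks of the 127 sites and their strengths are therefore uncertain. These sites were narrow, with a median width of 610 bp against 1002 bp for the other common sites. They were also among the strongest, since 17 of the first 27 common sites by lowest percentile over the 5 lists lay in a stretch. Without them, 2045 common sites remained. There FOXA3 was at 21.9% of the sites held by all 4 lists and at 1.36% of those held by 1, and at 13.4% of the weakest and 34.6% of the strongest bin. Median strengths at common sites were then 5.91, 6.95, 3.70 and 7.18 in the FOXA1 full-length, FOXA1 CTD-deleted, FOXA2 full-length and FOXA2 CTD-deleted lists, against 4.99, 5.95, 3.00 and 3.96 at sites without FOXA3. The difference in summits within 100 bp was 16.6 points (14.4 to 18.8).

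The 10 strongest common sites outside the stretches lay within PAX5, NEURL1 and KLRK1 or outside any protein-coding gene. PAX5 is a transcription factor of B cells, NEURL1 a ubiquitin ligase and KLRK1 a receptor of natural killer cells. The PAX5 site, on chromosome 9 at 36923599 to 36924501, lay 90.9 kb from an end of the gene. There full-length FOXA1 had a −log10 p of 35.0 and 16.1, CTD-deleted FOXA1 25.4 and 45.8, full-length FOXA2 20.4 and 12.8, CTD-deleted FOXA2 33.8 and 54.2, and FOXA3 36.4 and 63.6. Full-length FOXA2 had the lowest value but overlapped full-length FOXA1, and both FOXA3 values were above both of full-length FOXA1 and overlapped both CTD-deleted lists.

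The site within NEURL1, on chromosome 10 at 103503833 to 103504941, had 19.6 and 18.4, 14.6 and 31.4, 14.3 and 8.05, 19.7 and 28.0, and 33.8 and 51.1 in the same order of lists. The site within KLRK1, which also lies in the read-through gene KLRC4-KLRK1, on chromosome 12 at 10384571 to 10385907, had 10.3 and 10.0, 12.2 and 26.6, 11.8 and 14.2, 19.4 and 19.4, and 17.0 and 25.6. At NEURL1 both FOXA3 values lay above those of the other lists, while at KLRK1 they overlapped the CTD-deleted lists.

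Of the 7 others, 6 lay outside any protein-coding gene at some distance from the nearest gene end. They were on chromosome 2 at 91602081 to 91603781 (LOC124905938, 158.9 kb), chromosome 3 at 160055317 to 160056231 (LOC124906252, 16.8 kb), chromosome 7 at 42645384 to 42646776 (C7orf25, 263.1 kb), chromosome 10 at 29997470 to 29998887 (JCAD, 14.4 kb), chromosome 6 at 41320260 to 41321194 (NCR2, 14.9 kb) and chromosome 11 at 112563730 to 112565092 (PLET1, 303.7 kb). The seventh was on chromosome 18 at 3297002 to 3297919 (MYL12B, 19.1 kb), also outside any protein-coding gene, and was the one of the 10 that overlapped a fusion peak. None of the 10 overlapped a peak of the combined SOX2 list. The site on chromosome 2 lay before the gene-free stretch of that chromosome, which starts at 92035128. Whether reads can be placed uniquely at these 10 sites was not tested. The lowest value at 9 of the 10 sites came from FOXA2 full length, and at KLRK1 from FOXA1 full length.

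**Figure D4:**
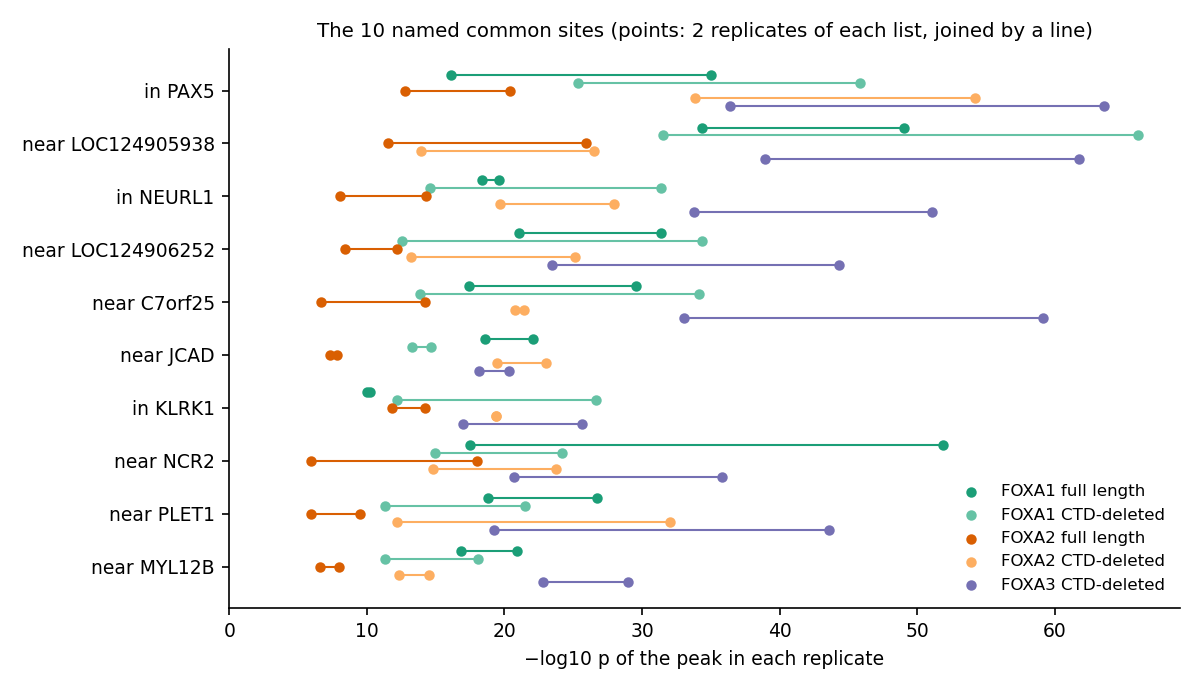
The −log10 p of both replicates in each of the 5 lists at the 10 strongest common sites outside the gene-free stretches, named by the gene that holds the site or has the nearest end. Replicates of a list are joined by a line, and at the PAX5 site the values run from 12.8 to 63.6.

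At the other end of the order, the 3 weakest common sites lay near PKN2 and TBL1XR1 and within NSMCE2. In each the percentile that set the place came from 1 FOXA3 replicate, with 4.58 against 28.5 in the other replicate near PKN2, 4.58 against 22.8 near TBL1XR1 and 4.43 against 37.6 within NSMCE2. The FOXA1 and FOXA2 values within NSMCE2 ran from 4.02 to 22.3.

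Common sites lay near gene ends more often than sites without FOXA3. A protein-coding gene ended or began within 1 kb of the centre at 108 of 2172 common sites (4.97%, 4.14 to 5.97) and at 207 of 7293 sites without FOXA3 (2.84%, 2.48 to 3.25), a difference of 2.13 points (1.20 to 3.19). The 108 include sites near TAF11L4, TAF11L5 and TAF11L7 on chromosome 5, members of 1 gene family of near-identical copies, where peaks are uncertain. Sites in such repeated genes were not counted in either class. Outside the gene-free stretches the shares were 5.28% and 2.85%. With transcription starts from the promoter table, which does not cover chromosome 8, they were 3.10% (2.43 to 3.94) and 1.65% (1.37 to 1.98). Within the strongest bin the difference was 1.40 points, with an interval of -0.00711 to 3.04. In that bin outside the stretches, a choice made after seeing the data, it was 1.77 points (0.271 to 3.53). Most sites of either class were far from gene ends, at a median of 46780 bp for common sites and 55485 bp for the others. Common sites fell inside a protein-coding gene at 45.3% (43.2 to 47.4), against 48.5% (47.4 to 49.7), and outside the stretches these shares were 48.1% and 48.7%, with an interval of the difference of -2.98 to 1.92.

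Common sites more often had another FOXA1 or FOXA2 site within 10 kb, at 67.4% (65.4 to 69.3) against 63.7% (62.6 to 64.8), a difference of 3.67 points (1.39 to 5.91). Outside the gene-free stretches the difference was 1.75 points, with an interval of -0.610 to 4.06 that includes 0. Counted among themselves, 373 common sites (17.2%) had another common site within 50 kb, in 116 pairs and 22 larger groups.

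SOX2 and its fusion with the FOXA2 CTD were not used to define the sites, and their peaks overlapped common sites more often than sites without FOXA3. The fusion list overlapped 205 common sites (9.44%, 8.28 to 10.7) and 131 sites without FOXA3 (1.80%, 1.52 to 2.13), a difference of 7.64 points (6.44 to 8.97). The SOX2 list overlapped 120 common sites (5.52%, 4.64 to 6.57) and 11 sites without FOXA3 (0.151%, 0.0842 to 0.270), a difference of 5.37 points (4.48 to 6.42). Most of this overlap was in the gene-free stretches, which held 118 of the 205 and 114 of the 120. The SOX2 list itself lay mostly there. Of its 1365 peaks, only 6 at common sites and 114 others were outside the stretches. Of the 7844 fusion peaks, 88 at common sites and 5641 others were outside. Most of the common sites behind the SOX2 difference over all sites thus lay in the stretches, and the part of position was not tested. Outside them the fusion shares were 4.25% (3.46 to 5.22) and 1.65% (1.38 to 1.97), a difference of 2.60 points (1.75 to 3.61). For SOX2, 6 of 2045 common sites and 4 of 7274 sites without FOXA3 remained, a difference of 0.238 points (0.0576 to 0.585) that rests on 10 sites in all.

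The lists of the first replicate alone, which are longer than the combined lists, gave a difference that was not carried by the stretches. Outside the stretches the fusion overlapped 17.5% (15.9 to 19.2) of common sites and 8.92% (8.29 to 9.60) of sites without FOXA3, and SOX2 overlapped 9.93% (8.70 to 11.3) and 4.36% (3.91 to 4.85). The differences were 8.58 points (6.86 to 10.4) and 5.57 points (4.25 to 7.01). Peak strength of SOX2 and the fusion at common sites was high in the stretches and not outside them. The 117 SOX2 peaks at common sites in the stretches had a median strength of 10.0, and the 6 outside had 3.66, against 3.94 for the 114 SOX2 peaks that were neither at common sites nor in stretches. For the fusion, the 124 peaks in the stretches had 9.11, and the 88 outside had 2.81, against 2.77 for other peaks. Strength of the FOXA peaks moves with these overlaps. Within the strongest bin outside the stretches the fusion difference was 2.59 points (1.23 to 4.25), and that for SOX2 was 0.253 (-0.0625 to 0.919).

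**Figure D5:**
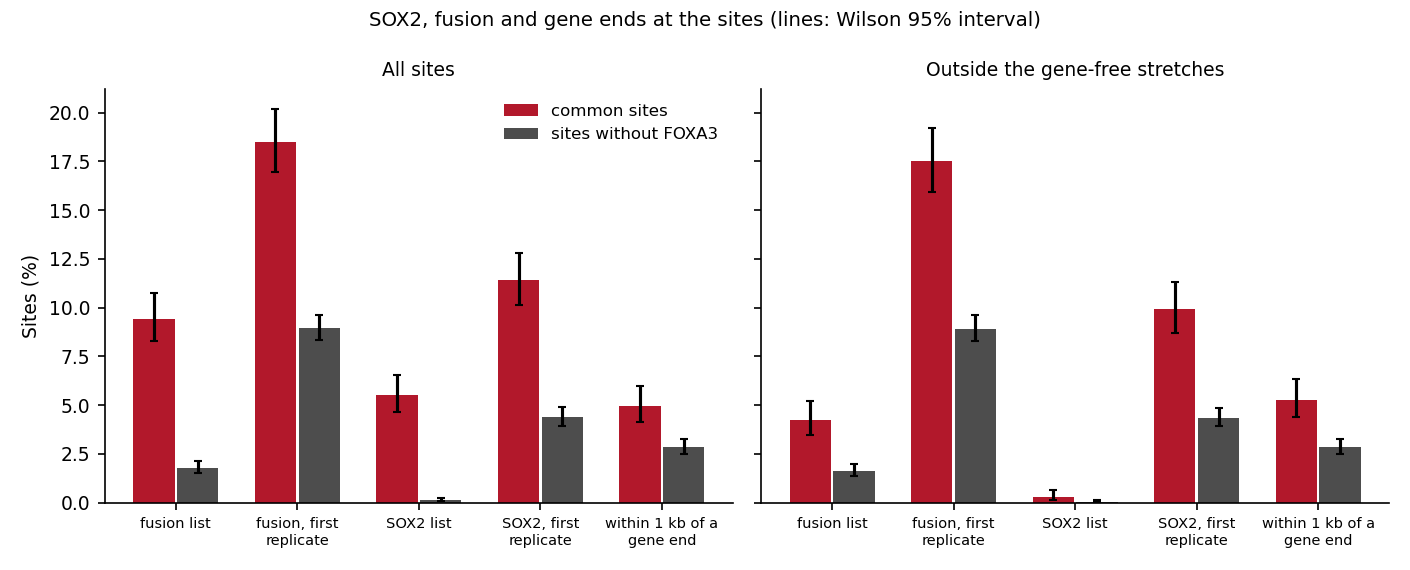
Share of common sites and of sites without FOXA3 (%) that overlap a peak of the fusion or SOX2 lists, or have a protein-coding gene end within 1 kb, with Wilson 95% intervals, for all sites (left) and outside the gene-free stretches (right). The SOX2 share at common sites is 5.52% on the left and 0.293% on the right, while the first-replicate lists change less.

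Outside the stretches, 3 common sites overlapped peaks of both combined lists, SOX2 and fusion. They lay within GALNT9 on chromosome 12 at 132241108 to 132243342, within BMS1 on chromosome 10 at 42782447 to 42784565, 0.493 kb from an end of that gene, and 0.702 kb from an end of ADRM1 on chromosome 20 at 62301239 to 62303917. GALNT9 encodes an enzyme that starts O-linked glycans, BMS1 a ribosome assembly factor and ADRM1 a ubiquitin receptor of the proteasome. At the BMS1 site SOX2 had a −log10 p of 3.58 and 5.84, the fusion 5.86 and 3.86, and FOXA3 6.46 and 8.78. In the order of the common sites the GALNT9, BMS1 and ADRM1 sites stood at places 1158, 1463 and 1636 of 2172.

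Few of the known FOXA target genes and genes of the host cell held a common site within 10 kb, at a share no higher than over all genes. With 10 kb on either side, 1169 of 19970 protein-coding genes (5.85%) held a common site and 15.6% held a site without FOXA3. In 5 lists of 20 genes each, 3 of 100 genes held a common site and 14 held a site without FOXA3, shares no higher than those over all genes. There were 0 of 20 endoderm and gut regulators, 1 of 20 hepatocyte genes, 2 of 20 genes of hormone-dependent breast and prostate cells, 0 of 20 osteoblast and mesenchymal genes and 0 of 20 AP-1 and YAP-TEAD genes. Sites without FOXA3 were at 2, 2, 1, 5 and 4 genes of these lists. With 100 kb on either side, 19 of the 100 held a common site, against 16.4% of all genes, and 40 held a site without FOXA3, against 38.8%. The median gene length of the lists ran from 8.11 kb to 32.9 kb, against 24.2 kb for all protein-coding genes, and the part of gene length was not tested.

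The gene with a common site inside it was ESR1, the oestrogen receptor alpha gene, on chromosome 6 at 151914207 to 151915096. There full-length FOXA1 had a −log10 p of 19.7 and 5.53, CTD-deleted FOXA1 7.96 and 26.7, full-length FOXA2 10.0 and 7.43, CTD-deleted FOXA2 8.41 and 18.5, and FOXA3 20.5 and 26.8. The FOXA1 and FOXA2 lists overlapped, and the lower FOXA3 value was above all but 1 of theirs. G6PC1, the glucose-6-phosphatase of the liver, had a site beyond its gene on chromosome 17 at 42918813 to 42919389, with 6.68 and 8.12, 6.68 and 22.3, 6.68 and 5.08, 7.99 and 31.6, and 10.7 and 29.1 in the same order. RET, a receptor tyrosine kinase, had one on chromosome 10 at 43138009 to 43141168, which also overlapped a fusion peak. Its values were 8.07 and 5.43, 5.33 and 17.2, 4.56 and 9.67, 17.0 and 5.97, and 8.54 and 12.6.

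Long genes held the most common sites. Of the protein-coding genes, 910 (4.56%) held at least 1 common site within the gene, 111 held 2 or more, and 8 held 4 or more. RORA, which encodes a nuclear receptor, and LINGO2, which encodes a neuronal membrane protein, held 5 each over 741 kb and 1276 kb, beside 4 and 8 sites without FOXA3. CTNNA3, TTC28 and DST held 4 each, over 1851 kb, 702 kb and 497 kb, beside 14, 6 and 2 sites without FOXA3. DST, which encodes the cytoskeletal linker dystonin, also had a common-site centre in a promoter window. SDK1, MAGI2 and NSMCE2 held 4 each as well, beside 7, 4 and 2 sites without FOXA3. Genes with a common site within 10 kb had a median length of 104.6 kb, against 24.2 kb for all protein-coding genes. The length of genes with a site without FOXA3 was not measured, so length is not shown to be particular to common sites. Exons and introns were not told apart.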

How the data were processed

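Per the labels, ChIP-seq was made from 8 factor groups of 2 replicates and 1 input, 17 samples in all. Per the submitters' processing notes, FastQC 0.10.1, Trim Galore, Bowtie2 2.4.4, SAMtools 0.1.18, MACS2, deepTools 2.4.1 and build hg38 were used; parameters, the control and IDR limits are not given in the sources used here. Of 14 deposited files, 4 were byte-for-byte copies. In the 8 combined lists the deposited columns used were the −log10 p of each replicate, the IDR score (125 times log2 of 1 over the IDR), the −log10 IDR and the summit. The deposited first-replicate lists of SOX2 and the fusion also hold a fold enrichment ratio and −log10 p and q, which were not needed beyond the strength. Positions are 1-based.

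Sites were merged and compared in Python 3.11.15 with pandas 2.3.3 and numpy 2.4.6, checked on simulated peaks. The RefSeq gene table (GRCh38.p14, 19970 protein-coding genes) gives no strand, so both gene ends were used. The planned motif share of whole sites needs a genome sequence, which was not used here, and promoter windows stood in for it; the table has none for chromosome 8. Named sites are the 10 with the highest lowest percentile over the 5 lists outside each chromosome's longest gene-free stretch, the 3 with both SOX2 and fusion peaks, the 3 weakest, and both edges of the rule; genes are those of 5 lists with a site and the 5 holding most sites. Members and lists were chosen with earlier results of these data known. No p-value was computed, since each group has 1 list. Alternatives covered the IDR limit, overlap rule, FOXA3 list, equal peak numbers, gene-free stretches, site width, strength, first-replicate lists, distances, motif, and leaving out the FOXA1 full-length list.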

Additional observations from a re-analysis of the deposited data

Results flagged for a closer look

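Peaks on chromosome Y and on unplaced or alternate contigs were outside the comparisons. The same definition applied to them gave 17 common sites, on 16 contigs and with 0 on chromosome Y. They were 22.1% (14.3 to 32.5) of the 77 sites that all 4 FOXA1 and FOXA2 lists held there, and the share on chromosomes 1 to 22 and X was 22.9%.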

How the results depend on the processing

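No paired analysis was possible because each group has 1 list made from both replicates, and leaving out a replicate was not possible for the FOXA lists for the same reason. For SOX2 and the fusion the first-replicate lists stand in for it. Under 59 alternatives, 32 values stayed inside the main interval (counts: inside 1.5 times), 27 left it and 0 reversed a difference whose interval excluded 0. Some had little or no room to change. Leaving out the stretches removed none of the 42 and 39 promoter windows, so TGTTT kept its main value there. The FOXA3 full-length list consists mostly of rows copied from the FOXA3 CTD-deleted list. The number of common sites was 0 at an IDR of at most 0.01, because no FOXA2 full-length peak reaches it, so differences at that limit could not be computed. It was 323 at an IDR of at most 0.05, 420 with the 6763 strongest peaks of each list, and 241 with the FOXA3 full-length list's own rows; fewer peaks enter each by construction. Leaving out the FOXA1 full-length list gave 3013. The fusion difference of 7.64 points became 9.54 with the first-replicate list, 2.60 outside the stretches, 10.4 in the strongest and 6.29 in the weakest of 4 strength bins, 2.59 in the strongest bin outside the stretches, 9.02 with the FOXA3 full-length list and 13.1 at an IDR of at most 0.05. In the same order the SOX2 difference of 5.37 became 7.02, 0.238, 8.32, 2.93, 0.253, 6.51 and 9.54. The gene-end difference became 3.54 in the weakest bin. The neighbour difference became 0.231 within 50 kb, 0.401 in the weakest bin, 1.01 in the strongest bin outside the stretches and 12.2 at an IDR of at most 0.05. The TGTTT difference was -5 points in the strongest bin, with 8 and 5 windows, and TGTTTAC gave 37.5 there (-12.0 to 69.4). The genes of the lists numbered 1 for the gene alone and 19 within 100 kb. The alternatives at an IDR of 0.05, without the FOXA1 full-length list, with the full-length list's own rows, with transcription starts, with each site counted once and with 2 choices together were chosen after seeing the data. Not run were motif shares of whole sites, for want of a genome sequence, with their window and IDR alternatives, and a centre window for gene ends, which already use the centre. Other causes were not tested.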

Other observations

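The share of common sites among sites held by all 4 FOXA1 and FOXA2 lists differed between chromosomes. It was 22.9% over all and highest on chromosome 15, with 111 common sites and 219 without FOXA3 (33.6%, 28.8 to 38.9). It was lowest on chromosome X, with 9 and 67 (11.8%, 6.36 to 21.0). Both chromosomes had 0 such sites in their gene-free stretch. On chromosome 1 the share went from 30.9% to 22.8% without the stretch, and on chromosome 13 from 24.6% to 13.4%. The intervals are not adjusted for the 23 chromosomes compared, and copy number in these lines was not tested.

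Outside the stretches, in examples chosen after their values were seen, the tightest groups of common sites included 3 within 7.41 kb in NUDCD3 on chromosome 7 at 44470969 to 44478378, and 3 within 7.71 kb on chromosome 5 at 17522531 to 17530235, over TAF11L5 and TAF11L6, near-identical members of 1 gene family, so their peaks are uncertain. A further 3 lay within 18.1 kb in PMS2, a DNA mismatch repair gene with near-identical copies whose peaks are likewise uncertain, on chromosome 7 at 5980283 to 5998336. The next 3 lay within 23.5 kb in MTHFD1L, an enzyme of mitochondrial folate metabolism, on chromosome 6 at 151045276 to 151068761.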
